A study of Mus musculus with 9 samples.

Results

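Microglial identity genes, which mark the resident macrophages of the brain, were followed in the hippocampus of C57BL/6J mice. The members were the rows of the count table whose gene symbol is on a list of 34 such genes, out of 57010 rows in the table, and each symbol matched 1 row. The 9 bulk RNA-seq libraries fall into 3 groups of 3. In the Sham group the L5 spinal nerve was located but left untied and the mice then had solvent. In the SNL group the nerve was ligated, a surgical model of neuropathic pain, before solvent. The CBD group had the same ligation and then cannabidiol, a plant cannabinoid without the intoxicating action of THC, injected into the peritoneum at 5 mg/kg for 15 days. Cannabidiol was therefore given only to ligated mice, and no library analysed here combines it with the sham operation. Nothing in the labels states that each library is its own animal, and p-values therefore reflect only how far these samples scatter, which may be technical.

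Microglia derive from yolk sac progenitors, maintain themselves in the adult brain and survey the tissue with motile processes. Their number depends on the receptor Csf1r and its ligands IL-34 and CSF1, their lineage on the transcription factors PU.1 (gene Spi1) and IRF8, and their homeostatic state on TGF-beta signalling and SALL1. In the hippocampus they remove synapses tagged by complement C1q and take up debris through receptors such as TREM2 and MERTK. In bulk tissue, fewer microglia and less RNA of a gene per microglial cell cannot be told apart.

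All 34 members were detected in all 9 libraries and passed the filter on low counts, which kept 17967 genes. Library totals ran from 16972620 to 20470546 expected counts, of which the members together took 0.0715% to 0.101%. Hippocampal neuron genes were present in all libraries, Prox1 of dentate granule cells at 56.0 to 139 CPM (counts scaled to the size of the library) and Wfs1 of CA1 neurons at 52.1 to 139 CPM. Transcripts of neighbouring brain regions differed between libraries. Pmch, a hypothalamic neuropeptide gene, was high in SNL 1 (200.4 CPM), CBD 1 (145.7 CPM) and SNL 2 (43.9 CPM) and did not pass 0.797 CPM in the other 6. All 15 thalamus and habenula markers had positive fold changes in SNL against Sham, 14 of them with an unadjusted p under 0.05. They summed to 576 to 832 CPM in Sham, and SNL 3, CBD 2 and CBD 3, the libraries of ligated mice without Pmch, stood above that range at 953, 889 and 1213 CPM. Leaving out the 3 libraries with Pmch therefore does not remove the difference in these markers, and their part in the results was not tested.

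Per kilobase of transcript, the members spanned from 61.6 CPM for the lysosomal protease Lgmn to 1.05 CPM for Ptprc, which encodes the pan-leukocyte phosphatase CD45. After Lgmn came the protease Ctss at 49.7, the complement chains C1qa at 35.5, C1qb at 34.1 and C1qc at 28.1, and the survival receptor Csf1r at 20.5 CPM per kilobase. The ranges of the 9 libraries overlapped between neighbours in this order, as for C1qa (21.5 to 46.1) and C1qb (18.2 to 44.4), except that P2ry13 (3.16 to 5.12) lay above Inpp5d (1.94 to 3.07). Transcription factors lay low, with Irf8 at 2.10 and Spi1 at 1.44 CPM per kilobase. The spread over libraries differed between members. Siglech varied 1.23-fold between its lowest and its highest library, Lgmn 1.33-fold and Cx3cr1 1.39-fold, whereas Tyrobp varied 2.62-fold, Fcer1g 2.75-fold and Ly86 2.77-fold.

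**Figure D1:**
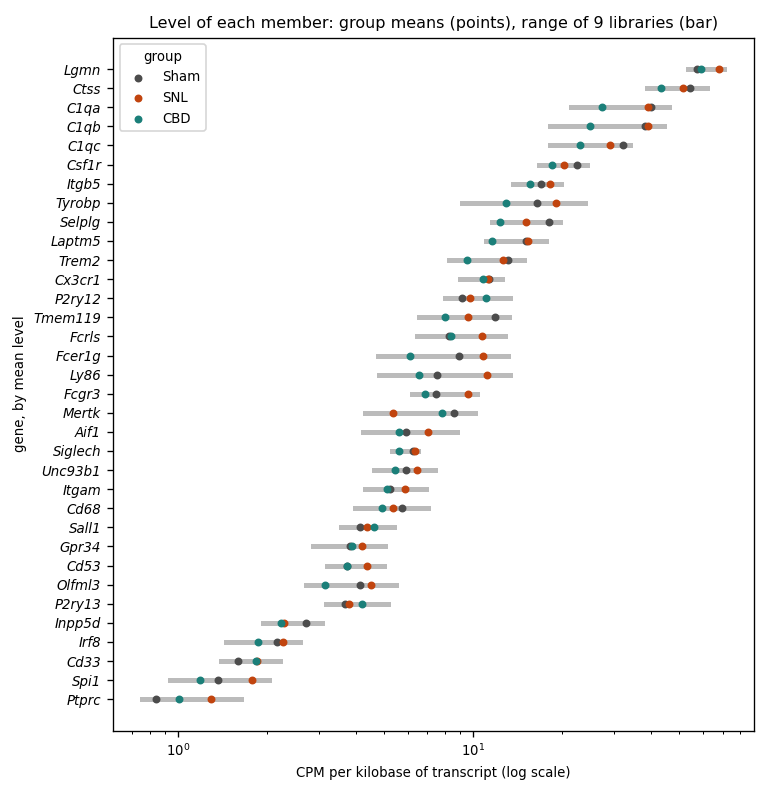
Level of the 34 members in CPM per kilobase of transcript on a log axis, ordered by the mean over 9 libraries. Points are the group means and grey bars run from the lowest to the highest library. Lgmn, Ctss and the 3 C1q chains lead the order, and Spi1 and Ptprc close it.

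The 3 comparisons all draw on 1 edgeR quasi-likelihood fit over the 9 libraries with adjustment over 17967 genes. None of the members passed an adjusted p under 0.05 in any of them, and neither did any other gene (0% of genes called in each comparison). The members are therefore described by their values, by the count at an unadjusted p under 0.05 and by the count whose libraries in the compared groups do not overlap, each read against the share of all tested genes. Every pair of comparisons shares 3 libraries, so a low or high group appears in more than 1 of them.

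In SNL against Sham, the share of members that differed lay near the share of all genes. Fold changes were above 0 for 23 of 34 members (67.6%, against 51.6% of all genes), with a median log2 fold change of 0.09 beside 0.01 over all genes. Ptprc, Ly86 and Lgmn had an unadjusted p under 0.05 upward, 3 of 34 or 8.82% against 5.83% of all genes, and Mertk did so downward, 2.94% against 7.96%. The groups did not overlap for 4 members that were higher in SNL (Spi1, Lgmn, Ptprc and Ly86; 11.8% against 7.94% of genes) and for Mertk, which was lower (2.94% against 9.81%). In the same comparison all 12 myelin and oligodendrocyte markers were above 0 (median 0.34, 3 with an unadjusted p under 0.05), as were 15 of 16 endothelium and pericyte markers (median 0.52, 11 with such a p). Their part in the members' values was not tested. DESeq2 called 365 genes (2.03%), of which Mertk was the only member, as lower (1.43% of genes) with an adjusted p of 0.0460. Limma voom with sample weights called 1 gene (0.00557%) and 0 members, and put 19 of the 34 members above 0, with a median of 0.02. The median moved to 0.02 without SNL 3, 0.03 without SNL 2, 0.04 without Sham 3, 0.14 without Sham 2 and 0.17 without SNL 1, and the upward count at unadjusted p ran from 1 (without SNL 3 or without Sham 1) to 6 (without Sham 2). Without the 3 libraries with Pmch, which leaves SNL 3 alone in its group, the median was 0.16 and the upward count 3.

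Against SNL, most members had fold changes below 0 in CBD, with the lowest medians among the C1q (-0.52), ITAM (-0.48) and leukocyte (-0.33) genes. Markers of some other cell types lay lower as well, and those of others did not. Fold changes were below 0 for 30 of 34 members (88.2%, against 50.1% of all genes), and the exceptions were P2ry12, P2ry13, Sall1 and Mertk. The median log2 fold change was -0.25, beside 0.00 over all genes. An unadjusted p under 0.05 downward was found for 9 members (Olfml3, Spi1, C1qa, C1qb, Trem2, Fcer1g, Fcgr3, Laptm5 and Ly86), which is 26.5% against 7.2% of all genes, and upward for Mertk (2.94% against 6.5%). All 3 CBD libraries lay below all 3 SNL libraries for 7 members (Siglech, Spi1, Trem2, Fcer1g, Fcgr3, Ptprc and Ly86), or 20.6% against 10.1% of genes, and above them for Mertk (2.94% against 9.18%). DESeq2 called 157 genes (0.874%) and no member, with 14 members given no adjusted p. Beside the members, all 12 myelin and oligodendrocyte markers were below 0 (median -0.45, 6 or 50% with an unadjusted p under 0.05), as were 15 of 16 endothelium and pericyte markers (median -0.22, 5 with such a p) and 14 of 15 thalamus and habenula markers (median -0.41, 1 with such a p). The direction was thus shared with these lists but not with all others. Of the neuron markers 7 of 14 were below 0 (median 0.02), and of the astrocyte markers 7 of 12 (median -0.11). Above 0 were 9 of 10 choroid plexus, all 5 tested erythrocyte and 8 of 11 hypothalamus markers (medians 0.40, 0.32 and 0.41). The part of other cells in the members' values was not tested. Limma voom, which gave CBD 2 a weight of 4.27 and CBD 1 a weight of 0.446, called 1132 genes (6.3%) and 5 members, namely C1qb, Fcer1g, Fcgr3 and Ly86 as lower (3.82% of genes) and Mertk as higher (2.48% of genes). The downward count at unadjusted p was 3 without CBD 3, 4 without CBD 2, 5 without SNL 3, 14 without SNL 1 and 16 without CBD 1, and Mertk missed the upward count without CBD 2 and without SNL 1. Without SNL 1, SNL 2 and CBD 1, the libraries with Pmch, the median was -0.48 and the downward count 18, with SNL 3 as the lone SNL library, which is assumed to vary like the other groups.

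Against Sham, most members again had fold changes below 0 in CBD, now led by Tmem119, Selplg and the C1q chains. The members summed to 848 to 984 CPM in Sham, a range that held CBD 1 at 864 CPM, while CBD 2 and CBD 3 lay below it at 791 and 730 CPM. Fold changes were below 0 for 25 of 34 members (73.5%, against 49.9% of all genes), with a median of -0.18 beside 0.00 over all genes. The members with an unadjusted p under 0.05 downward numbered 9 (Tmem119, Olfml3, Selplg, C1qa, C1qb, C1qc, Trem2, Ctss and Laptm5), 26.5% against 8.87% of all genes, and 0 members had such a p upward, against 7.41%. The groups did not overlap for 9 members, all lower in CBD (Tmem119, Olfml3, Selplg, Csf1r, C1qa, C1qc, Trem2, Ctss and Laptm5), or 26.5% against 11.1% of genes, and for 0 members that were higher, against 10.6%. DESeq2 called 384 genes (2.14%) and no member, and limma voom called 1051 genes (5.85%) and 6 members as lower (3.93% of genes), namely Tmem119, Selplg, C1qa, C1qb, C1qc and Ctss. The median was -0.08 without CBD 3, -0.11 without Sham 2 and -0.32 without CBD 1. The downward count at unadjusted p was 3 without CBD 3 or without Sham 2 and 4 without CBD 2. Of the other cell types, 8 of 12 myelin and oligodendrocyte markers were below 0 (median -0.13, 0 with an unadjusted p under 0.05), while 12 of 16 endothelium and pericyte markers (median 0.21, 5 with such a p) and all 15 thalamus and habenula markers (median 0.56) were above 0. Without the libraries with Pmch the median was -0.30 and the downward count 13.

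**Figure D2:**
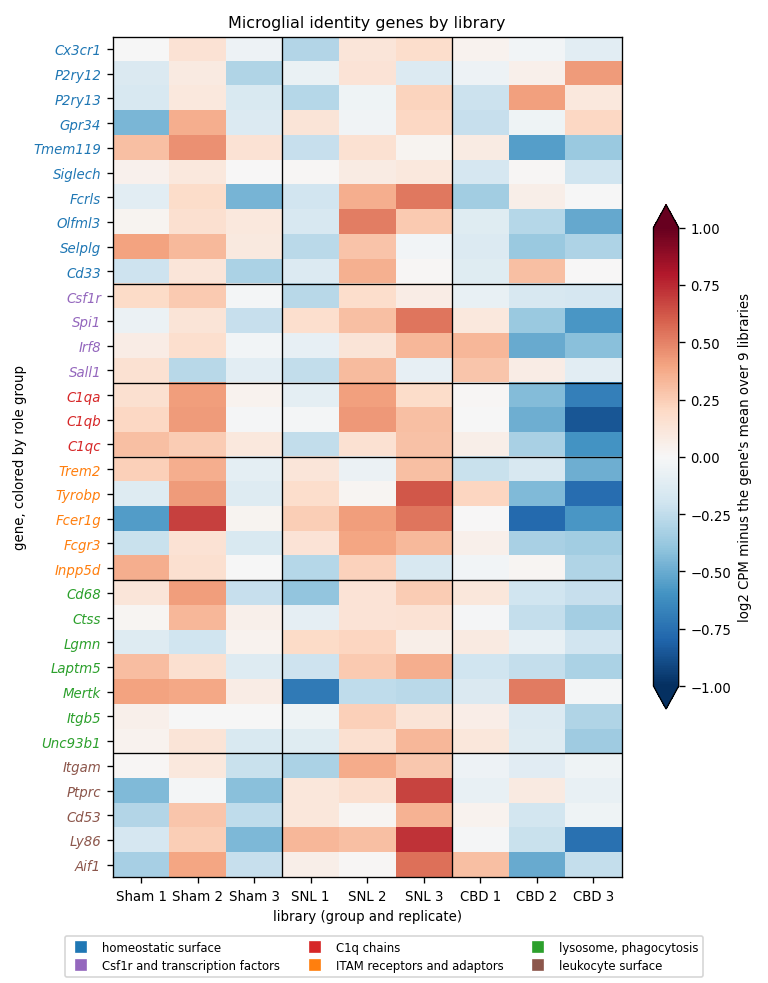
Each cell is the log2 CPM of a member in a library minus the member's mean over the 9 libraries, with libraries in columns and genes in rows by role group. CBD 2 and CBD 3 are blue for most of the C1q, ITAM and leukocyte genes, SNL 3 is red for most of them, and CBD 1 is closer to white.

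The homeostatic surface genes, the receptors by which resting microglia are recognised, had no common direction across the comparisons: fold changes were above 0 for 7 of the 10 in SNL against Sham, 2 in CBD against SNL and 5 in CBD against Sham. Tmem119, a surface protein used to tell microglia from other macrophages, stood at 26.6, 29.6 and 23.9 CPM in the Sham libraries, 18.4, 24.0 and 22 CPM in the SNL libraries, and 22.8, 14.7 and 16.7 CPM in the CBD libraries. The CBD libraries all lay below the Sham libraries, while SNL 1 was below CBD 1. For CBD against Sham edgeR gave a log2 fold change of -0.56 (SE 0.17, adjusted p = 0.213), and for SNL against Sham it gave -0.31 (SE 0.17, adjusted p = 0.441). Selplg, the P-selectin ligand PSGL-1, followed the same order of group means, with 33.6 ± 3.60 CPM in Sham, 27.9 ± 5.43 in SNL and 22.9 ± 1.90 in CBD (SD, n = 3). Its CBD libraries (21.4 to 25.1 CPM) all lay below its Sham libraries (29.6 to 36.6 CPM), with a log2 fold change of -0.55 (SE 0.15, adjusted p = 0.213) by edgeR. Tmem119 and Selplg are neighbours in the genome, with 0 protein-coding genes between them in RefSeq, and their levels correlated at r = 0.91 over the 9 libraries.

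P2ry12, the ADP receptor that steers microglial processes toward injury, stood at 21.0, 24.6 and 18.8 CPM in the Sham libraries, 22.1, 25.4 and 21.1 CPM in the SNL libraries, and 22.4, 23.9 and 31.2 CPM in the CBD libraries. CBD 3 held the highest value and Sham 3 the lowest, and the 3 groups overlapped. Its log2 fold change in CBD against Sham was 0.27 (SE 0.15, adjusted p = 0.408) by edgeR, and it became -0.03 once the trend with transcript GC content and length was taken out. P2ry13, its neighbour in the genome and another purinergic receptor, had 9.32 ± 0.993, 9.57 ± 1.67 and 10.6 ± 2.28 CPM in Sham, SNL and CBD (SD, n = 3), with overlapping groups. Unlike the neighbours Tmem119 and Selplg, P2ry12 and P2ry13 correlated at only r = 0.36 over the 9 libraries. Cx3cr1, the receptor of the neuronal chemokine fractalkine, stood at 49.7, 54.8 and 48.1 CPM in the Sham libraries, 40.5, 54.2 and 56.3 CPM in the SNL libraries, and 51.0, 48.8 and 46.2 CPM in the CBD libraries. Its lowest and highest values were both in the SNL group, which spanned the other groups.

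Olfml3, a secreted protein of homeostatic microglia, stood at 21.5, 23.5 and 22.7 CPM in the Sham libraries, 18.9, 30.0 and 25.2 CPM in the SNL libraries, and 19.4, 17.3 and 14.8 CPM in the CBD libraries. The CBD libraries all lay below the Sham libraries but overlapped the SNL libraries, since SNL 1 was below CBD 1. The log2 fold change was -0.53 (SE 0.17, adjusted p = 0.306) in CBD against SNL by edgeR. Siglech, a lectin of the sialic acid-binding family, was the steadiest member, with 14 to 15.0 CPM in Sham, 14.1 to 15.0 in SNL and 12.2 to 14 in CBD. The CBD libraries lay just under the SNL libraries. The remaining homeostatic members, the receptor Gpr34, the Fc receptor-like Fcrls and the sialic acid lectin Cd33, overlapped between all groups, at 5.97 to 10.5, 14.7 to 23.1 and 8.0 to 10.8 CPM in the Sham libraries.

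Csf1r, the receptor on which microglial survival depends, stood at 109, 114 and 94.2 CPM in the Sham libraries, 78.9, 108 and 101 CPM in the SNL libraries, and 91.1, 85.5 and 85.1 CPM in the CBD libraries. The CBD libraries all lay below the Sham libraries, and the SNL libraries overlapped both. RSEM gave Csf1r counts that were not whole in all 9 libraries, so some of its reads were shared out between overlapping or similar transcripts. Spi1, which encodes the lineage factor PU.1, stood at 2.75, 3.13 and 2.45 CPM in the Sham libraries, 3.21, 3.52 and 4.14 CPM in the SNL libraries, and 3.09, 2.22 and 1.91 CPM in the CBD libraries. All SNL libraries lay above all Sham and all CBD libraries, Sham and CBD overlapped, and the log2 fold change in CBD against SNL was -0.59 (SE 0.24, adjusted p = 0.338) by edgeR. Irf8, its partner in the lineage, ran from 4.13 to 7.36 CPM in CBD, the widest of the 3 groups, against 5.76 to 6.57 in Sham and 5.54 to 7.38 in SNL. Sall1, a factor that holds microglia in their resting identity, stood at 25.3, 18.8 and 21.3 CPM in the Sham libraries, 19.2, 28.4 and 21.6 CPM in the SNL libraries, and 27.7, 24.0 and 21.3 CPM in the CBD libraries, and its 3 groups overlapped.

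The C1q chains build the recognition molecule of the classical complement pathway, and their 3 genes lie side by side, with 0 other protein-coding genes between C1qb, C1qc and C1qa in RefSeq. The 250 bases upstream of the start of C1qb and C1qc are shown because the levels of these genes correlated over the libraries (r = 0.92). Those of Trem2 and Ctss, which also stood lower in CBD than in Sham, are shown beside them. Fcer1g is added as a member without the motif. Its group mean was lowest in CBD as well, at 4.18 CPM against 6.13 in Sham and 7.36 in SNL, and its Sham and CBD libraries overlapped. Capitals mark GAGGAA, the core of the box bound by PU.1, or TTCCTC where it lies on the opposite strand. The sequences are from RefSeq on GRCm38.p6, read 5′ to 3′ on the gene's strand, from chr4:136886201-136886450 (minus strand) for C1qb, chr4:136892915-136893164 (minus strand) for C1qc, chr17:48346151-48346400 (plus strand) for Trem2, chr3:95526536-95526785 (plus strand) for Ctss and chr1:171234350-171234599 (minus strand) for Fcer1g.
C1qb: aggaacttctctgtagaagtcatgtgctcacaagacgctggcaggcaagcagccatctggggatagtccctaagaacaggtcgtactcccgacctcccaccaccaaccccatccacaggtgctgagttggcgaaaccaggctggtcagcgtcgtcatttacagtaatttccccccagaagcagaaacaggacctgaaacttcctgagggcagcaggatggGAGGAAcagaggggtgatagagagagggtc
C1qc: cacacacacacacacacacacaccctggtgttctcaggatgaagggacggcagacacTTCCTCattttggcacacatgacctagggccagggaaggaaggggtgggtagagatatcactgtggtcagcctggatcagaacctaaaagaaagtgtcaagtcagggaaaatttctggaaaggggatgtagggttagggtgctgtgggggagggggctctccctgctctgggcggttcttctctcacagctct
Trem2: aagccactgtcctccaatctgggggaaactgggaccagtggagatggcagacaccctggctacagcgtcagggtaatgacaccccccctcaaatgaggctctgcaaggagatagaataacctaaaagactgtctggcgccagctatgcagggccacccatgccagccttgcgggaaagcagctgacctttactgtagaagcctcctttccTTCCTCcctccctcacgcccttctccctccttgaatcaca
Ctss: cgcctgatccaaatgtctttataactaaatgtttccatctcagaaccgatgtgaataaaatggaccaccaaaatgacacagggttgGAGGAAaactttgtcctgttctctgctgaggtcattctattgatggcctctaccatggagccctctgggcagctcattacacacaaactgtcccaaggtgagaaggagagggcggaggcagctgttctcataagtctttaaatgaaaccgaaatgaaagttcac
Fcer1g: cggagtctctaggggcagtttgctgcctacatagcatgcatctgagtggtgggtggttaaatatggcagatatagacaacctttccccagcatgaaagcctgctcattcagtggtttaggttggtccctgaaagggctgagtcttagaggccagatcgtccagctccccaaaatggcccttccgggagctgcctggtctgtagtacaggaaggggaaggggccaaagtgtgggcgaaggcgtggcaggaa
The box ended 25 bases before the start in C1qb and 35 bases before it in Trem2, and lay farther upstream in C1qc and Ctss.

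Upstream windows of RefSeq genes were matched for 26 of the 34 members, and those of Csf1r, Selplg, Unc93b1, C1qa, Tyrobp, Spi1, Gpr34 and Tmem119 were not used here. GAGGAA was present on either strand of the 250 bases in 15 of the 26 (57.7%) and in 6986 of 27025 genes with such a window (25.9%). The longer GAGGAAGT, which contains GAGGAA, was in 2 of 26 members, C1qc and Inpp5d (7.69%), and in 2.79% of genes. The composite element of PU.1 with an IRF factor (EICE) was in 0 of 26 members and in 2.68% of genes. A match describes the letters of the window only.

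C1qb stood at 41.4, 48.1 and 35.5 CPM in the Sham libraries, 35.4, 48.3 and 44.0 CPM in the SNL libraries, and 35.7, 25.5 and 19.8 CPM in the CBD libraries. CBD 1 reached the lowest Sham and SNL libraries, while CBD 2 and CBD 3 lay below all 6 of them. The log2 fold change was -0.66 (SE 0.21, adjusted p = 0.306) in CBD against SNL and -0.62 (SE 0.21, adjusted p = 0.223) in CBD against Sham, both by edgeR. C1qa stood at 40.1, 48.0 and 36.8 CPM in the Sham libraries, 33.6, 47.6 and 40.9 CPM in the SNL libraries, and 36.2, 26.6 and 22.4 CPM in the CBD libraries. Its 3 CBD libraries lay below all Sham libraries, and CBD 1 overlapped SNL 1. By edgeR the log2 fold change of C1qa in CBD against Sham was -0.55 (SE 0.19, adjusted p = 0.228). C1qc stood at 40.8, 39.4 and 35.5 CPM in the Sham libraries, 28.0, 36.8 and 40.5 CPM in the SNL libraries, and 34.5, 26.4 and 21.9 CPM in the CBD libraries. Its CBD libraries all lay below its Sham libraries, with a log2 fold change of -0.48 (SE 0.18, adjusted p = 0.245) in the same comparison by edgeR. Over the 9 libraries C1qa correlated with C1qb at r = 0.99 and with C1qc at r = 0.92. The median log2 fold change of the 3 chains, -0.52 in CBD against SNL and -0.55 in CBD against Sham, was -0.20 and -0.27 with the trend of GC content and length taken out.

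ITAM receptors and adaptors carry activating signals through tyrosine motifs. Trem2, a lipid-sensing receptor whose variants carry Alzheimer's disease risk, stood at 14.8, 16.2 and 11.8 CPM in the Sham libraries, 13.7, 12.1 and 15.5 CPM in the SNL libraries, and 10.8, 11.3 and 8.98 CPM in the CBD libraries. All CBD libraries lay below all Sham and all SNL libraries, which overlapped each other. The log2 fold change was -0.41 (SE 0.17, adjusted p = 0.334) in CBD against SNL and -0.46 (SE 0.17, adjusted p = 0.236) in CBD against Sham by edgeR. Tyrobp, the adaptor DAP12 through which TREM2 signals, stood at 8.01, 11.7 and 8.0 CPM in the Sham libraries, 9.86, 8.89 and 13.5 CPM in the SNL libraries, and 10.2, 6.45 and 5.15 CPM in the CBD libraries. CBD 2 and CBD 3 were the lowest of the 9 libraries, SNL 3 the highest, and CBD 1 lay within the other groups.

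Fcer1g, the common gamma chain of Fc receptors, stood at 3.77, 8.95 and 5.66 CPM in the Sham libraries, 6.6, 7.41 and 8.07 CPM in the SNL libraries, and 5.58, 3.25 and 3.71 CPM in the CBD libraries. The SNL libraries all lay above the CBD libraries, whereas the Sham group held both the highest value and a value among the lowest. Its log2 fold change in CBD against SNL was -0.82 (SE 0.31, adjusted p = 0.322) by edgeR. Fcgr3, an activating receptor for immunoglobulin G that uses this chain, stood at 9.08, 11.7 and 9.53 CPM in the Sham libraries, 11.6, 13.9 and 13.3 CPM in the SNL libraries, and 10.9, 8.46 and 8.34 CPM in the CBD libraries. All CBD libraries lay below all SNL libraries and Sham overlapped both, with a log2 fold change of -0.48 (SE 0.17, adjusted p = 0.311) in CBD against SNL and of 0.36 (SE 0.16, adjusted p = 0.372) in SNL against Sham by edgeR. RSEM counts of Fcgr3 were not whole in 3 libraries, so reads were shared with related sequences there. Inpp5d, the phosphatase SHIP1 that damps these signals, was at 11.7 to 15.1 CPM in Sham, 9.63 to 13.8 in SNL and 9.56 to 11.9 in CBD, and the groups overlapped.

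Among lysosomal and phagocytic genes, Mertk was the only member low in SNL in every library. It encodes a receptor tyrosine kinase for engulfment of dying cells and synapses that astrocytes also express, and stood at 40.0, 39.6 and 31.9 CPM in the Sham libraries, 18.6, 25.4 and 25.1 CPM in the SNL libraries, and 27.4, 43.5 and 29.9 CPM in the CBD libraries. The SNL libraries all lay below the Sham and the CBD libraries, and CBD 2 was the highest of all. By edgeR the log2 fold change was -0.69 (SE 0.19, adjusted p = 0.231) in SNL against Sham and 0.55 (SE 0.19, adjusted p = 0.312) in CBD against SNL, 2 comparisons that share the SNL libraries. The astrocyte glutamate transporters Slc1a3 and Slc1a2 also had their lowest group mean in SNL. Slc1a3 stood at 545, 585 and 399 CPM in the Sham libraries, 372, 382 and 399 CPM in the SNL libraries, and 534, 468 and 490.1 CPM in the CBD libraries, with Sham 3 at the level of the SNL libraries. Its log2 fold change was -0.41 (SE 0.14, adjusted p = 0.271) in SNL against Sham and 0.37 (SE 0.14, adjusted p = 0.321) in CBD against SNL by edgeR. Over all 12 astrocyte markers the summed level was 4563 to 5069 CPM in Sham, 3919 to 4459 in SNL and 4429 to 5244 in CBD. Abundant genes weigh most in this sum, and the mean log2 CPM of the markers overlapped, at 7.43 to 7.49, 7.37 to 7.62 and 7.39 to 7.53. Most markers went against Slc1a3: 8 of the 12 had a fold change above 0 in SNL against Sham, and 7 of the 12 below 0 in CBD against SNL. The part of astrocytes in the Mertk values was not tested.

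Ctss, a cysteine protease of the microglial lysosome, stood at 67.7, 84.2 and 69.0 CPM in the Sham libraries, 62.6, 73.4 and 73.8 CPM in the SNL libraries, and 66.1, 56.6 and 52.7 CPM in the CBD libraries. The CBD libraries all lay below the Sham libraries, with a log2 fold change of -0.33 (SE 0.13, adjusted p = 0.251) by edgeR. Laptm5, a lysosomal membrane protein of blood-derived cells, stood at 44.6, 40.2 and 32.8 CPM in the Sham libraries, 31.0, 43.0 and 46.1 CPM in the SNL libraries, and 31.3, 30.4 and 28.8 CPM in the CBD libraries. CBD lay below Sham in all libraries and overlapped SNL through SNL 1, and edgeR gave a log2 fold change of -0.41 (SE 0.16, adjusted p = 0.327) in CBD against SNL. Lgmn, an asparaginyl endopeptidase, stood at 111, 106 and 125 CPM in the Sham libraries, 139.6, 141 and 127 CPM in the SNL libraries, and 130.0, 116 and 107 CPM in the CBD libraries. All SNL libraries lay above all Sham libraries, by a log2 fold change of 0.25 (SE 0.11, adjusted p = 0.345) in edgeR. Cd68, a lysosomal glycoprotein widely used as a mark of phagocytic activity, stood at 7.04, 8.64 and 5.51 CPM in the Sham libraries, 4.90, 7.10 and 7.70 CPM in the SNL libraries, and 6.98, 5.62 and 5.5 CPM in the CBD libraries, without separation of groups. Itgb5, an integrin subunit that binds vitronectin, and Unc93b1, which brings nucleic acid sensing toll-like receptors to the endosome, overlapped between all groups at 55.1 to 57.1 and 12 to 14.6 CPM in Sham.

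All 5 leukocyte genes had a fold change above 0 in SNL against Sham and below 0 in CBD against SNL, and they kept those signs under all 21 other settings tried. Their median log2 fold changes of 0.25 and -0.33 were 0.13 and -0.14 without SNL 3, and the first was 0.51 without Sham 2 and 0.15 without Sham 3, the second -0.19 without CBD 2. Ptprc stood at 3.82, 5.11 and 3.87 CPM in the Sham libraries, 5.60, 5.78 and 8.29 CPM in the SNL libraries, and 4.93, 5.52 and 4.92 CPM in the CBD libraries. The SNL libraries lay above all Sham and all CBD libraries, and SNL 3 was the highest. The log2 fold change in SNL against Sham was 0.62 (SE 0.21, adjusted p = 0.269) by edgeR. Ly86, the MD-1 partner of the toll-like receptor homologue RP105, stood at 8.11, 10.8 and 6.68 CPM in the Sham libraries, 11.5, 11.3 and 15.1 CPM in the SNL libraries, and 9.04, 7.84 and 5.44 CPM in the CBD libraries. The SNL libraries lay above all others, with 0.56 (SE 0.23, adjusted p = 0.328) in SNL against Sham and -0.76 (SE 0.24, adjusted p = 0.306) in CBD against SNL by edgeR. Aif1, which encodes the cytoskeletal protein IBA1 by which microglia are stained, stood at 4.18, 6.93 and 4.49 CPM in the Sham libraries, 5.49, 5.31 and 7.70 CPM in the SNL libraries, and 6.50, 3.72 and 4.46 CPM in the CBD libraries, so that the highest value was in SNL 3 and the groups overlapped. Itgam, the integrin chain CD11b, and Cd53, a tetraspanin, overlapped between all groups as well, with SNL at 20.1 to 32.4 and 6.89 to 8.66 CPM.

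**Figure D3:**
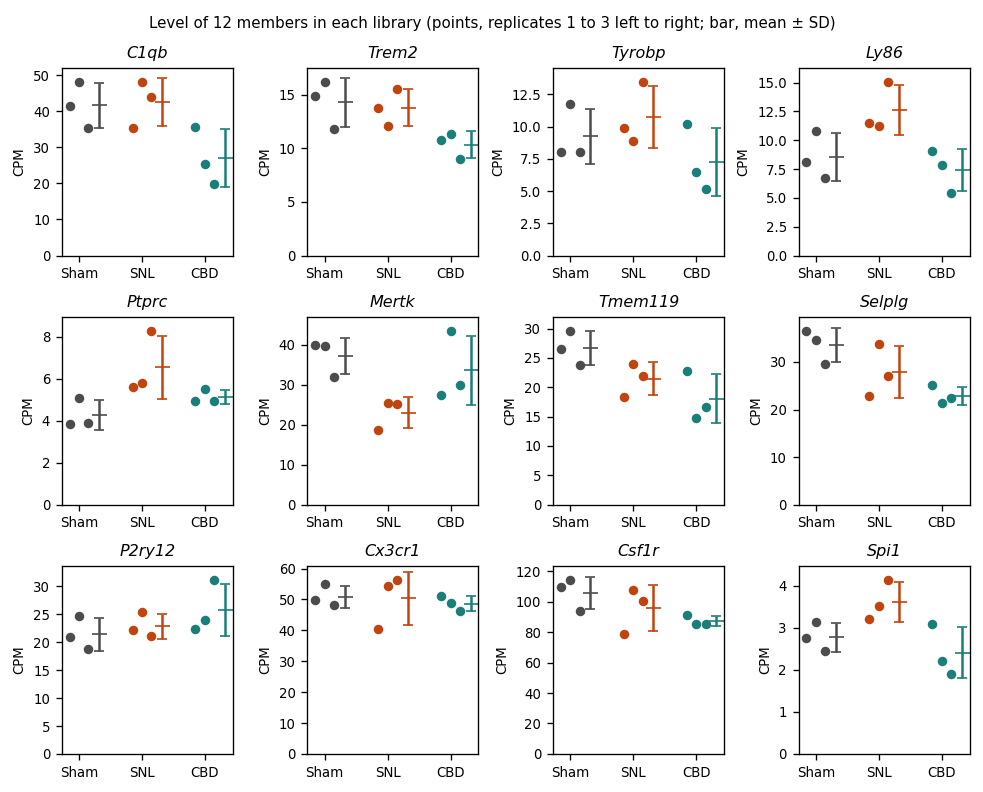
CPM of 12 members in each library, with points for replicates 1 to 3 of Sham, SNL and CBD and bars for the mean ± SD of 3 libraries. Trem2, Spi1, Ly86 and Ptprc in SNL lie above all 3 CBD libraries, and Mertk in SNL lies below them.

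**Figure D4:**
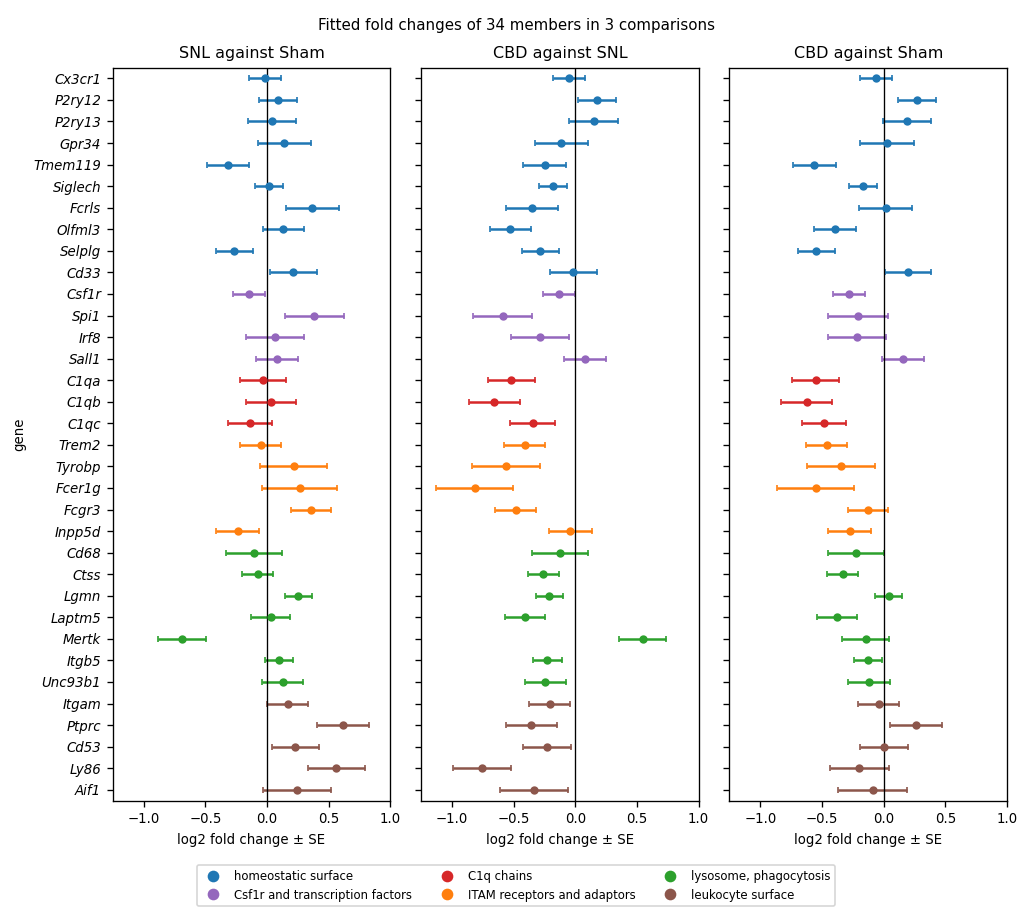
Fitted log2 fold change ± SE of the 34 members in the 3 comparisons, colored by role group. In CBD against SNL 30 points lie below 0, and Mertk stands at 0.55; no member passed an adjusted p under 0.05 in edgeR.

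Genes that act on these members were read from a list of 30 ligands, partners and regulators, of which 29 were tested, and none passed edgeR's adjusted threshold. At an unadjusted p under 0.05, 2 were higher (6.90%, against 5.83% of all genes) and 4 lower (13.8% against 7.96%) in SNL against Sham. In CBD against SNL 0 were higher (against 6.5%) and 2 lower (6.90% against 7.2%), and in CBD against Sham 0 were higher (against 7.41%) and 5 lower (17.2% against 8.87%). Nrros, which holds latent TGF-beta on the surface of microglia, stood at 7.50, 9.20 and 6.37 CPM in the Sham libraries, 2.98, 2.94 and 4.99 CPM in the SNL libraries, and 4.01, 4.85 and 4.46 CPM in the CBD libraries. All 6 libraries of ligated mice lay below the Sham libraries, with a log2 fold change of -1.08 (SE 0.24, adjusted p = 0.210) in SNL and of -0.79 (SE 0.24, adjusted p = 0.213) in CBD by edgeR. With DESeq2 the adjusted p of Nrros in SNL was 0.0119. Tgfb1, the ligand itself, stood at 4.79, 4.65 and 4.28 CPM in the Sham libraries, 5.25, 6.63 and 6.16 CPM in the SNL libraries, and 3.52, 3.61 and 2.49 CPM in the CBD libraries. All CBD libraries lay below all others, and edgeR gave -0.90 (SE 0.20, adjusted p = 0.306) against SNL. Tgfb3 was at 11.7 to 12.4 CPM in Sham, 14.3 to 19.6 in SNL and 12.4 to 14.3 in CBD, with 0.52 (SE 0.14, adjusted p = 0.229) in SNL against Sham by edgeR.

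The Csf1r ligands overlapped between groups, Il34 at 29.6 ± 4.35, 22.9 ± 6.97 and 23.2 ± 2.85 CPM and Csf1 at 41.2 ± 2.91, 35.6 ± 3.37 and 33.7 ± 6.27 CPM in Sham, SNL and CBD (SD, n = 3). Cx3cl1, the fractalkine that binds Cx3cr1, ran from 328 to 474 CPM in Sham and 272 to 342 in CBD, with -0.37 (SE 0.16, adjusted p = 0.284) by edgeR. C4b, the complement protein cleaved downstream of C1q, stood at 89.0, 97.7 and 70.9 CPM in the Sham libraries, 43.9, 56.4 and 46.6 CPM in the SNL libraries, and 68.4, 42.4 and 39.9 CPM in the CBD libraries. It lay lower in SNL and CBD than in all Sham libraries, with -0.81 (SE 0.21, adjusted p = 0.224) in SNL against Sham and -0.77 (SE 0.21, adjusted p = 0.213) in CBD against Sham by edgeR. The C1q chains were lowest in CBD 2 and CBD 3, whereas C4b was below Sham in all 6 libraries of ligated mice. DESeq2 called C4b in both comparisons, at adjusted p of 0.0207 and 0.0282.

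Disease-associated microglia genes, a set that microglia switch on around plaques and damage, were read from a list of 22, of which 20 were tested. In SNL against Sham 17 of the 20 had a fold change above 0 (85% against 51.6% of all genes), with a median of 0.30, and 5 had an unadjusted p under 0.05 upward (25% against 5.83%) and 1 downward (5% against 7.96%). In CBD against SNL 18 of the 20 were below 0 (90% against 50.1%), with a median of -0.22, and 2 had an unadjusted p under 0.05 downward (10% against 7.2%, near the background). Itgax is counted in the 17, the 5 and the 18. It passed the filter on low counts only through its SNL libraries, at 0.578 to 1.01 CPM against at most 0.303 in Sham and 0.413 in CBD. Its directions therefore add no support to these counts. The first median was 0.15 without Sham 1 and 0.17 without SNL 3, and the second was -0.17 without CBD 3 and -0.38 without CBD 1. Cd63, a tetraspanin of lysosomes and exosomes found in many cell types, stood at 51.8, 67.5 and 66.0 CPM in the Sham libraries, 95.5, 81.4 and 106 CPM in the SNL libraries, and 87.8, 82.8 and 70.7 CPM in the CBD libraries. Its SNL and CBD libraries lay above all Sham libraries, by 0.61 (SE 0.14, adjusted p = 0.210) in SNL by edgeR, and DESeq2 called it there at an adjusted p of 0.0121. Igf1, a growth factor, was at 5.36 to 8.46 CPM in Sham and 7.97 to 11.3 in SNL, with 0.65 (SE 0.22, adjusted p = 0.262) by edgeR.

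Lpl, a lipoprotein lipase also made by neurons, stood at 27.7, 35.3 and 25.1 CPM in the Sham libraries, 14.5, 9.99 and 21.5 CPM in the SNL libraries, and 16.2, 22.3 and 28.0 CPM in the CBD libraries, with SNL below all Sham libraries and a log2 fold change of -0.94 (SE 0.27, adjusted p = 0.234) by edgeR. Apoe, the lipid carrier that astrocytes also secrete, was at 1671 ± 44.4, 1853 ± 104 and 1634 ± 271 CPM in Sham, SNL and CBD (SD, n = 3). Levels within the list were wide apart: Spp1, the secreted protein osteopontin, ran from 11.8 to 36.1 CPM in Sham and the tetraspanin Cd9 from 51.2 to 61.9 CPM, while Cst7 and Itgax were near the detection floor. Cst7 stayed at or under 0.303 CPM in all libraries and was not tested. Itgax, the integrin chain CD11c, was at 0, 0.303 and 0.204 CPM in Sham, 0.578 to 1.01 CPM in SNL and 0.174 to 0.413 CPM in CBD, on at most 19 counts.

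Inflammatory and pain signalling genes of microglia numbered 22, of which 15 were tested. At an unadjusted p under 0.05, 1 was higher (6.67%, against 5.83% of all genes) and 2 lower (13.3% against 7.96%) in SNL against Sham. In CBD against SNL 0 were higher (against 6.5%) and 2 lower (13.3% against 7.2%). In CBD against Sham 0 were higher (against 7.41%) and 1 lower (6.67% against 8.87%), so the shares rest on few genes. Il1b reached at most 0.433 CPM and Tnf 0.319 CPM, and neither was tested. P2rx4, the ATP-gated channel studied in spinal microglia after nerve injury, stood at 11.9, 13.8 and 12.7 CPM in the Sham libraries, 14.5, 15.9 and 14 CPM in the SNL libraries, and 12.5, 10.6 and 9.96 CPM in the CBD libraries. All SNL libraries lay above all others, with -0.43 (SE 0.14, adjusted p = 0.306) in CBD against SNL by edgeR. Cd14, the co-receptor for lipopolysaccharide, was at 1.94 to 2.75 CPM in Sham, 3.03 to 3.72 in SNL and 1.80 to 2.33 in CBD, with -0.78 (SE 0.24, adjusted p = 0.306) in CBD against SNL by edgeR. Il18, an inflammasome cytokine, was at 10.1 to 11 CPM in Sham and 11.8 to 14.6 in SNL, with 0.34 (SE 0.13, adjusted p = 0.299) by edgeR. Nfkbia, the inhibitor of NF-kappaB that this factor induces, was at 19.0 to 28.6, 13.2 to 16.9 and 9.79 to 17.1 CPM in Sham, SNL and CBD, with -0.83 (SE 0.23, adjusted p = 0.213) in CBD against Sham by edgeR.

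Markers of monocytes, neutrophils and lymphocytes summed to few CPM, while those of border-associated macrophages summed to more, mostly through Maf, Dab2 and Stab1. The 13 monocyte and neutrophil markers summed to 4.39 to 8.14 CPM in Sham, 4.31 to 15.0 in SNL and 3.71 to 10.8 in CBD, with Ly6g at 0 in all 9 libraries. SNL 3, the library highest in Ptprc, Ly86, Tyrobp and Aif1, was also the highest in this sum. S100a8 stood at 0.102, 0.303 and 0.204 CPM in the Sham libraries, 0.992, 0.158 and 1.91 CPM in the SNL libraries, and 0.866, 0.774 and 0.753 CPM in the CBD libraries. The 13 lymphocyte markers summed to 1.94 to 3.54 CPM in Sham, 3.15 to 5.52 in SNL and 1.62 to 3.74 in CBD, SNL 3 again the highest, and Cd3e did not pass 0.325 CPM in any library. The 14 border-associated macrophage markers summed to 53.1 to 61.9 CPM in Sham, 52.6 to 76.8 in SNL and 56.1 to 64.2 in CBD, with their defining gene Mrc1 at 2.58 to 3.01, 2.68 to 4.26 and 2.95 to 3.41 CPM. Maf, Dab2 and Stab1 held most of that sum, at means of 17.3, 15.8 and 15.8 CPM. Per kilobase of transcript they stood at 2.72, 3.39 and 1.97 CPM, above Ptprc at 1.05, as did Pf4 at 1.38. The remaining border-associated markers lay below Ptprc, from Siglec1 at 0.128 to Cbr2 at 0.922 CPM per kilobase, with Mrc1 at 0.599. The other leukocyte members lay above all of these markers per kilobase, with Ly86 at 8.40, Aif1 at 6.19, Itgam at 5.41 and Cd53 at 3.95 CPM. The part of these cells in the SNL values of the leukocyte genes was not tested.

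The members did not vary as 1 block. Over the 9 libraries, 21 of 34 had a Pearson correlation above 0.7 with the mean of the other 33, led by Unc93b1 at 0.93, Ctss at 0.90 and C1qb at 0.90. The 7 members below 0.3 were P2ry12 at -0.28, Mertk at -0.16, P2ry13 at -0.01, Sall1 at 0.05, Gpr34 at 0.17, Lgmn at 0.23 and Cd33 at 0.24. The median over all pairs was 0.47, and it was 0.47 with group means subtracted. Among the closest pairs were C1qa with C1qb (0.99), Ctss with C1qa (0.96) and Spi1 with Ly86 (0.95), whereas Tmem119 and P2ry12, both used to identify resting microglia, had r = -0.38. These correlations are descriptions over 9 libraries that share depth, base composition and tissue makeup.

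The fold changes of members correlated with transcript GC content in the comparisons with CBD, and with transcript length in a direction that differed between comparisons. Across the 34 members, Spearman's rho between GC content and fold change was -0.75 in CBD against Sham and -0.44 in CBD against SNL, and across 17642 genes it was -0.57 and -0.45. With transcript length, rho was 0.58 across members and 0.37 across all genes in CBD against SNL, and 0.46 and 0.16 in CBD against Sham. In SNL against Sham the values with GC content were -0.38 across members and -0.15 across genes, and those with length were -0.11 and -0.20. Genes are not independent replicates, so these values carry no p. The mean GC content of the counted transcripts was lowest in CBD 3 (48.8%) and CBD 2 (49.1%) and highest in Sham 1 (50.7%). In CBD against Sham, members rich in GC, such as the C1q chains and Tmem119, were low, and members poor in GC, such as P2ry12, Gpr34 and Cd53, were not. Not all members followed: Ctss, at 46.0% GC, lay below all Sham libraries in CBD, and Spi1, at 58.9%, overlapped them. In CBD against SNL, Gpr34 and Cd53 were below 0 too, and Ly86, at 45.4% GC, was at -0.76. With offsets that take this trend out, the member median was -0.18 in CBD against SNL and -0.14 in CBD against Sham, still with 29 and 26 of 34 below 0. The downward counts at unadjusted p were then 6 and 5 in place of 9 and 9.

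**Figure D5:**
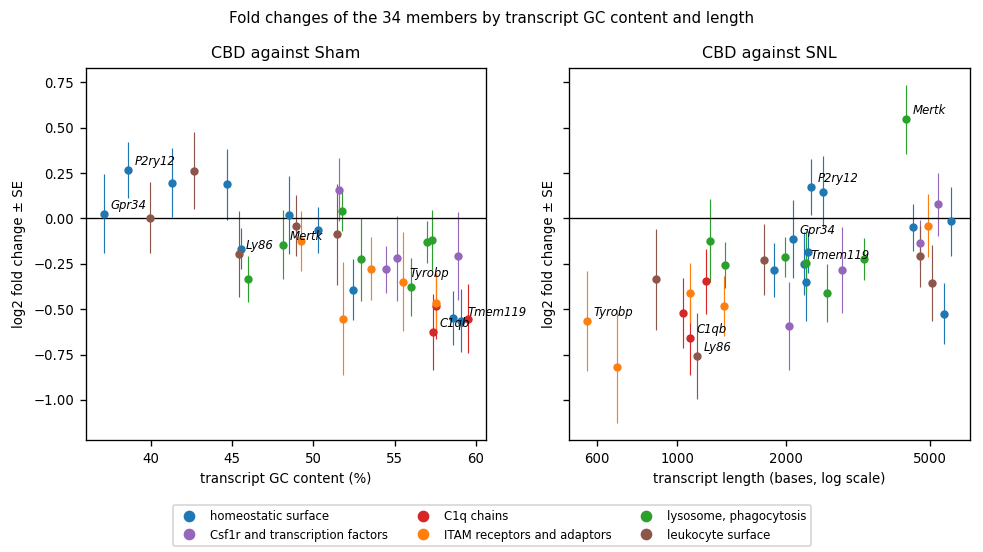
Log2 fold change ± SE of the 34 members against transcript GC content in CBD against Sham (left) and against transcript length on a log axis in CBD against SNL (right), colored by role group. Fold changes are lower at high GC content (rho = -0.75) and higher at great length (rho = 0.58).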

How the data were processed

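Bulk RNA-seq of hippocampal tissue gave 9 libraries in 3 groups of 3, assigned from the group label of each sample. Per the labels' protocols, RNA was extracted with TRIzol and libraries were made with a SMARTER mRNA-Seq kit. The deposited values are expected counts per gene, estimates that share reads among the transcripts they match, and the submitters' processing notes name RSEM and the build GRCm39. The RSEM version, the aligner and the gene annotation were not given in the sources used here. Of 306 member values, 25 were not whole numbers (tolerance 1e-06), 9 of them of Csf1r and 8 of Itgam, and all values were rounded before testing. The pair of libraries nearest to each other, CBD 2 and CBD 3, still differed by a chi-square of 6.44 per gene, where sampling noise alone gives about 1. Every other pair lay farther apart, at 16.1 to 73.3. CBD 2 and CBD 3 also had the highest mitochondrial share of counts, 6.37% and 6.65%, against 6.29% in SNL 1, 4.52% in CBD 1 and 3.20% to 4.56% in Sham. The part of this likeness and share in the members' values was not tested.

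Genes were kept by filterByExpr (17967 of 57010) and tested with edgeR 4.0.16 (R 4.3.3), quasi-likelihood F test, TMM scaling, 1 factor for the 3 groups, 6 residual degrees of freedom, common biological coefficient of variation 0.192, and Benjamini-Hochberg adjustment over all tested genes at 0.05. SEs were taken as the size of the fold change over the root of its F. CPM values are rounded counts over the TMM-adjusted library size, and correlations use log2 CPM with a prior count of 2. DESeq2 1.42.0 and limma 3.58.1 were alternatives. The procedure was tested on simulated counts. Transcript GC content and length came from the longest GENCODE M21 basic transcript on GRCm38, available for 98.2% of tested genes and all 34 members. The offsets remove, per library, a spline trend (5 degrees of freedom each) on both. Upstream windows are RefSeq's, on GRCm38.p6, and those of Mertk and P2ry12 did not match a transcript in a check of the start and are not printed.

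The members, lists, tests and alternatives were chosen with earlier results of these data known. Named members are 14 anchors and those with the smallest p-values in each direction of each comparison, and members with an unadjusted p under 0.05 were added. The rule for companion genes allowed up to 4 per list and 15 more; fewer are named, and which was decided after their values were seen. Fold changes are printed only for these named genes.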

Additional observations from a re-analysis of the deposited data

How the results depend on the processing

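Each comparison was recomputed under 21 other settings, 20 of them listed with the design and 1, leaving out the Pmch libraries together with offsets for GC content and length, chosen after seeing the data. The member median kept its sign in all of them. It was -0.48 in CBD against SNL without the libraries with Pmch of at least 10 CPM, and -0.34 when the offsets were added. Leaving out each library in turn gave 0.02 to 0.17 in SNL against Sham, -0.37 to -0.19 in CBD against SNL and -0.32 to -0.08 in CBD against Sham. Same-numbered libraries had correlations of deviations from -0.27 to 0.19, and libraries of different number and group from -0.27 to 0.31. With so few libraries these values cannot settle whether the replicate numbers pair them. With the replicate block the medians were 0.09, -0.26 and -0.18 and 0 genes were called.

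Calls depended on the tool. Against 0 genes with edgeR, the counts in SNL against Sham, CBD against SNL and CBD against Sham were 365, 157 and 384 with DESeq2, 1, 1132 and 1051 with limma voom, and 253, 1 and 56 with no filter. They were 1, 2 and 20 without the Pmch libraries, and 0, 1 and 13 with offsets as well. An adjusted p under 0.1 gave 2 genes in SNL against Sham, and fitting only the 6 libraries compared gave 1 in CBD against Sham. Leaving out 1 library gave 0 to 8, 0 to 2 and 0 to 17 genes, each highest without CBD 1, and 0 members. Members called were 1 with DESeq2 in SNL against Sham, and 5 and 6 with limma voom in CBD against SNL and CBD against Sham. The cause of these differences was not tested.

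Of the 34 named member fold changes, signs turned in 4. With the offsets, P2ry12 and Cd33 in CBD against Sham were -0.032 and -0.052, and with the replicate block as well -0.022 and -0.052. In CBD against SNL, P2ry13 was -0.036 without the Pmch libraries and with offsets, and -0.022 without CBD 2, with a highest value of 0.284 without SNL 3; Sall1 was -0.045 without SNL 1 and -0.038 without CBD 1, with a highest value of 0.254 without SNL 2. Over all 34 members, named or not, 16 changed sign under at least 1 setting in SNL against Sham, 7 in CBD against SNL and 13 in CBD against Sham, all with a main log2 fold change of at most 0.283 in size. The fewest counts in any library were 33 for Spi1, 63 for Fcer1g and 75 for Ptprc, against 1351 for Csf1r, so relative counting error is wider for the former.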
